A study of Mus musculus with 4 samples.

Results

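Citrate cycle and pyruvate metabolism were followed through 39 genes in pancreatic islets of knockout (KO) and wild-type (WT) mice. The members were chosen by name: they were the rows whose symbol was that of an enzyme, transporter or regulatory enzyme on a fixed list of these reactions. All 39 were present among the 22481 gene symbols measured, each in 1 row, and all 39 passed the filter on low counts. The KO islets carried the genotype labelled Ngn3Mettls KO, which the labels do not spell out further, and the WT islets were labelled wild type. Both groups were of strain 129sv and 2 weeks of age, and each had 2 libraries, made from pools of more than 400 islets. The label names Ngn3, a gene that marks endocrine progenitors, but which gene was removed and what drove its removal are not stated in it. Islets hold several cell types, and in such bulk samples fewer cells of a type and less RNA per cell cannot be told apart.

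Pyruvate, the end product of glycolysis, enters mitochondria through a carrier made of MPC1 and MPC2. The pyruvate dehydrogenase complex turns it into acetyl-CoA, and kinases (PDK) switch that complex off while phosphatases (PDP) switch it on. Citrate synthase joins acetyl-CoA to oxaloacetate, and the cycle then oxidises citrate step by step and hands electrons to the respiratory chain. In beta cells much of the pyruvate enters instead through pyruvate carboxylase, and the citrate, malate and isocitrate so made can leave the mitochondrion. ATP-citrate lyase, encoded by Acly, splits exported citrate into oxaloacetate and cytosolic acetyl-CoA for fatty acid and sterol synthesis.

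Mettl3 and Mettl14, which the genotype label may point to, encode the subunits of the N6-methyladenosine writer. Mettl3 measured 18.6 and 17.2 CPM (counts scaled to library size) in the KO pools and 29.3 and 17.1 CPM in the WT pools (log2 fold change of KO over WT, as in all parentheses of this form, -0.38 ± 0.28 SE, edgeR adjusted p = 0.634). Mettl14 was at 14.1 and 15.6 CPM in the KO pools and 21.4 and 21.8 CPM in the WT pools (-0.54 ± 0.22 SE, edgeR adjusted p = 0.369, unadjusted p = 0.0402). Neurog3, which encodes NGN3, was at 0.35 ± 0.40 SE. None of these genes passed the test at an adjusted p under 0.05, so the values do not check the label. Library totals were 4057716 to 5232245 estimated fragments, and the lowest member value, that of Pdk3 in WT replicate 1, rested on 30 fragments. Beta cell markers were present in every library. Their summed CPM over 8 genes was 42676 and 44251 in the KO pools and 61216 and 44914 in the WT pools. Of the 8, 7 were negative and 2 were called lower (0.0938% of all genes tested), and their median log2 fold change was -0.43. For 5 alpha cell markers the sums were 48085 and 60650 in the KO pools and 41982 and 44120 in the WT pools, with 4 positive. The 4 delta and PP cell markers summed to 2947 and 2575 CPM in the KO pools and 2637 and 2074 CPM in the WT pools. Of these 3 were positive and 1 was called higher (0.133% of all genes tested). The 8 acinar markers summed to 3653 and 7446 CPM in the KO pools and 8147 and 5124 CPM in the WT pools, and all 7 that were tested were negative. The 4 mesenchymal markers, all negative, summed to 915 and 805 CPM in the KO pools and 1617 and 638 CPM in the WT pools. The 6 immune markers, all positive, summed to 158 and 100.1 CPM in the KO pools and 103 and 60.7 CPM in the WT pools. No marker was at 0 in all libraries. The part of cell composition in the values of the members was not tested.

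The largest difference among the 39 genes was that of Acly, which also had the highest FPKM (a level scaled to transcript length and library size) of them in every library, and most enzymes of the cycle itself measured slightly lower in KO islets. No member passed the test over all genes. The test was edgeR's quasi-likelihood test, with calls at an adjusted p (Benjamini-Hochberg) under 0.05. It called 0 of 39 members, where 0.227% of the 12789 genes tested were called, 0.0938% lower in KO and 0.133% higher. At an unadjusted p under 0.05 stood 7 of the 39 members (background 12.6%), 6 of them lower in KO (background 6.04%) and 1 higher (background 6.51%). DESeq2 called 1 member, Acly, which was lower in KO (background 1.2%, of which 0.547% lower and 0.657% higher), and limma on log2(FPKM + 1) called 0 (background 0.0%). At an unadjusted p under 0.05 DESeq2 had 2 members (background 7.38%), 1 lower (background 3.75%) and 1 higher (background 3.63%). At the same level limma had 6 (background 10.9%), 6 lower (background 5.64%) and 0 higher (background 5.25%). A negative log2 fold change was found for 30 of the 39 members, against 49.3% of all genes tested, and the median over the members was -0.16, against 0.0046 over all genes tested.

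Sequence upstream of the transcription start is shown for Acly, Dlst and Fh1. These are the members at an unadjusted p under 0.05 whose start in RefSeq lay within 1 base of the GENCODE start. Each run holds the 250 bases before the start, from RefSeq on GRCm38.p6, and capitals mark matches on either strand to GGGCGG (a GC box) or CCAAT. The Acly window is chr11:100528001-100528250, minus strand, that of Dlst chr12:85110583-85110832, plus strand, and that of Fh1 chr1:175625636-175625885, minus strand.
Acly: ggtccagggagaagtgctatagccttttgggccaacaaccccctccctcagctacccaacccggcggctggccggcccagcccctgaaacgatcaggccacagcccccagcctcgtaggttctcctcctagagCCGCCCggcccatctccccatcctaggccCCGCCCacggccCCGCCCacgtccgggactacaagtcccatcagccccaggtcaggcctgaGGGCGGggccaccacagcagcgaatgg
Dlst: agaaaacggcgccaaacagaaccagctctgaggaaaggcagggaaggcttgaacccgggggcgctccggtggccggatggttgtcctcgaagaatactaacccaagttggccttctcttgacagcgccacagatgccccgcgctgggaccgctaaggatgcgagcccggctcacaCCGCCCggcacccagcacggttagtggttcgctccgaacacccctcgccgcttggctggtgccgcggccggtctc
Fh1: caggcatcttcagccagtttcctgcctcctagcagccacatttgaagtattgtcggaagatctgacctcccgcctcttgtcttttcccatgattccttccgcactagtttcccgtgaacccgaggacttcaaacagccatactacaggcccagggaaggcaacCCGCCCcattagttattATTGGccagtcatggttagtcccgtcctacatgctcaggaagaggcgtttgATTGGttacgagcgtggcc
The Acly window held 4 GC boxes and no CCAAT, the Dlst window 1 GC box, and the Fh1 window 1 GC box and 2 CCAAT matches. A window was found for 35 of the 39 members. Among these, 24 held GGGCGG (68.6%, against 32.7% of all 32851 windows of that length) and 19 held CCAAT (54.3%, against 33.8%). Each member gave 1 window, while the 32851 windows held every start, several for some genes, and were not limited to genes tested here. The shares of members and of all windows are thus from unlike sets, and their difference was not tested. The E-box CACGTG was in 2 members' windows (5.71%, against 6.02% of all windows), and the ETS motif CCGGAAG in 4 (11.4%, against 6.91%). The motif of the factor NRF1 was in 0 (0.782% of all windows), as was the sterol response element TCACCCCAC (0.496% of all windows). All 6 motifs were searched on both strands, and 0 pairs of matches to different motifs shared a base in the members' windows.

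Acly measured 1361 and 1067 CPM in KO replicates 1 and 2, against 2441 and 1909 CPM in WT replicates 1 and 2. Both KO libraries lay below both WT libraries, and the gap between the groups was wider than that between the pools of either group. The means were 1214 ± 208 CPM in the KO pools and 2175 ± 376 CPM in the WT pools (SD, n = 2 each). The KO level was 0.558 times that of WT, a log2 fold change of -0.84 ± 0.17 (SE), with an edgeR adjusted p of 0.126 and an unadjusted p of 0.00129. The gene lies on chromosome 11 (100476353 to 100528000, minus strand, mm10), and no other coding gene overlaps it in the GENCODE M21 annotation. Its unadjusted p ranked 130 among the 12789 genes tested. There were 58 tested genes with a mean of at least 1000 CPM, and 3 of them, Acly included, had a log2 fold change as low as that of Acly or lower. The DESeq2 adjusted p was 1.41e-05. Without WT replicate 2 the log2 fold change was -1.01 (edgeR adjusted p = 0.00184). It was -1.04 without KO replicate 1, -0.68 without KO replicate 2 and -0.66 without WT replicate 1, with edgeR adjusted p-values of 0.077, 0.514 and 0.115.

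**Figure D1:**
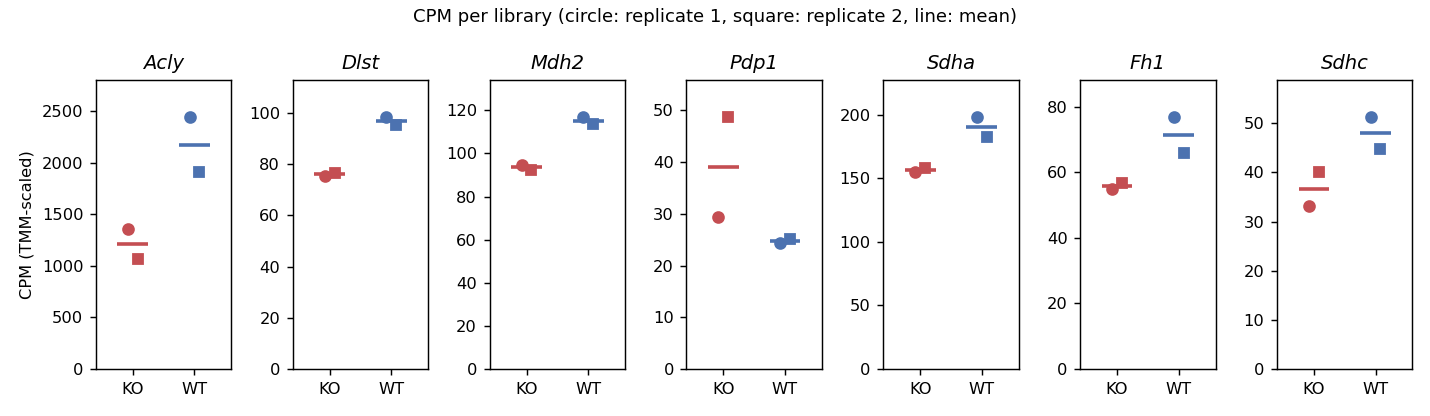
CPM of the 7 members at an unadjusted edgeR p under 0.05, in order of p, with KO left and WT right in each panel; circles are replicates 1, squares replicates 2 and lines group means (n = 2), and each axis starts at 0. In Acly both KO libraries (1361 and 1067 CPM) lie well under both WT libraries (2441 and 1909 CPM), while in Pdp1 the KO mean is carried by KO replicate 2 (48.7 CPM).

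Other genes around cytosolic citrate and acetyl-CoA were examined beside Acly. The fatty acid synthase gene Fasn, which builds palmitate from the malonyl-CoA that acetyl-CoA gives, measured 194 and 168 CPM in the KO pools and 270.1 and 249 CPM in the WT pools (-0.52 ± 0.12 SE, edgeR adjusted p = 0.181, unadjusted p = 0.00295). Slc25a1, which encodes the mitochondrial citrate carrier, was at 34.6 and 33.0 CPM in the KO pools and 48.2 and 37.2 CPM in the WT pools (-0.34 ± 0.18 SE). Both genes had each KO library under each WT library, as did 22.3% of all genes tested. Acaca, whose product carboxylates acetyl-CoA, overlapped between the groups, at 90.5 and 74.9 CPM in the KO pools and 89.3 and 110.0 CPM in the WT pools. Acss2, which makes cytosolic acetyl-CoA from acetate, was at -0.20 ± 0.19 SE on the log2 scale. Its mitochondrial relative Acss1 was at -0.20 ± 0.48 SE and rested on only 15 to 23 fragments per library. Both genes overlapped between the groups. Of the 4 genes Fasn, Acaca, Acss2 and Acss1, 4 had a negative log2 fold change. Only Fasn was at an unadjusted p under 0.05 (background 6.04% lower), and none was called.

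**Figure D2:**
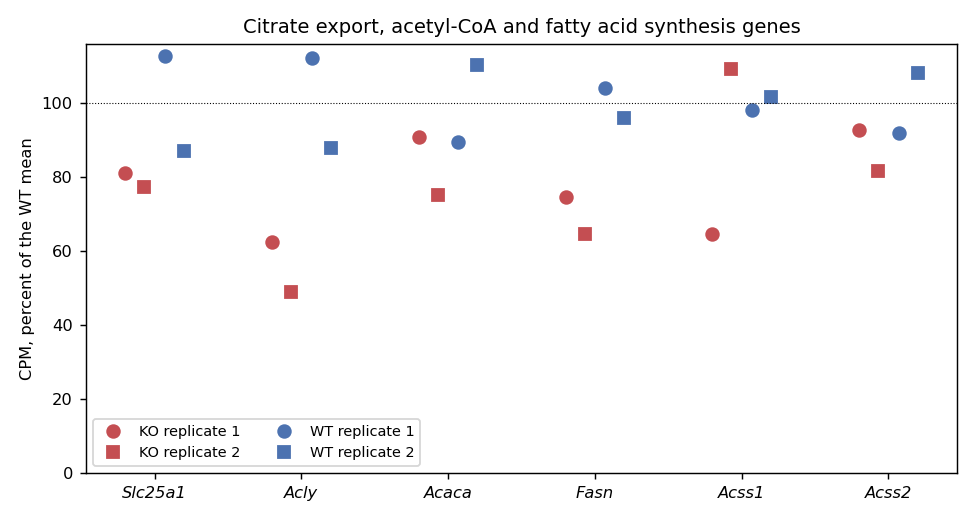
CPM in each library as a percent of the WT mean for Acly, the citrate carrier gene Slc25a1 and 4 genes of acetyl-CoA and fatty acid metabolism; red is KO, blue WT, circles replicates 1 and squares replicates 2. KO libraries are at 62.6% and 49.1% of the WT mean for Acly and at 74.7% and 64.8% for Fasn, while the groups overlap for Acaca, Acss1 and Acss2.

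Within the cycle itself, 15 of 17 genes measured lower in KO, and the median log2 fold change was -0.28. In 11 of the 17 both KO libraries lay below both WT libraries, and in 0 both lay above (background 22.3% below and 22.7% above). None was called. The 5 cycle genes Dlst, Mdh2, Sdha, Fh1 and Sdhc were at an unadjusted edgeR p under 0.05, all lower in KO (background 6.04% lower). Their KO levels were 0.763 to 0.824 times those of WT. With DESeq2 none of the 5 was at an unadjusted p under 0.05.

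Dlst, the succinyltransferase core of the oxoglutarate dehydrogenase complex, measured 75.6 and 76.7 CPM in the KO pools and 98.3 and 95.4 CPM in the WT pools (-0.35 ± 0.12 SE, edgeR adjusted p = 0.304). The pools of each group were close to each other, and the value moved only between -0.37 and -0.34 when single libraries were left out. Ogdh, the first subunit of the same complex, was nearly level, at 279.8 and 269.8 CPM in the KO pools and 297 and 280.4 CPM in the WT pools (-0.07 ± 0.11 SE). Dld, the dehydrogenase shared by this complex and pyruvate dehydrogenase, was at 85.0 and 83.6 CPM in the KO pools and 94.7 and 104 CPM in the WT pools (-0.24 ± 0.12 SE). In each of the 3 subunits both KO libraries lay below both WT libraries, as they did in 22.3% of all genes tested. Ogdhl, which encodes a second form of the first subunit and is no member, measured 78.5 and 71.2 CPM in the KO pools and 118 and 115 CPM in the WT pools (-0.63 ± 0.12 SE, edgeR adjusted p = 0.122, unadjusted p = 0.000952). In FPKM, Ogdhl made up 23.8% and 20.3% of the sum of Ogdh and Ogdhl in KO, against 30.1% and 30.4% in WT.

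Succinate dehydrogenase, which is also complex II of the respiratory chain, has 4 nuclear subunits. Sdha, the flavoprotein, measured 155 and 158 CPM in the KO pools and 198 and 183 CPM in the WT pools (-0.28 ± 0.11 SE, edgeR adjusted p = 0.355). Sdhb, the iron-sulphur subunit, was at 42.2 and 43.7 CPM in the KO pools and 53.8 and 50.5 CPM in the WT pools (-0.28 ± 0.14 SE). Sdhc, a membrane anchor, was at 33.1 and 40.2 CPM in the KO pools and 51.2 and 44.8 CPM in the WT pools (-0.39 ± 0.17 SE). In these 3 subunits both KO libraries lay below both WT libraries (background 22.3%). Sdhd, the other anchor, did overlap, at 74.1 and 72.3 CPM in the KO pools and 79.7 and 68.1 CPM in the WT pools (-0.01 ± 0.13 SE). Sdhaf2, which helps attach the flavin to SDHA, measured 37.1 and 46.3 CPM in the KO pools and 25.3 and 24.1 CPM in the WT pools (0.76 ± 0.18 SE, edgeR adjusted p = 0.182, unadjusted p = 0.00329).

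Fumarase and malate dehydrogenase carry out the steps that follow. Fh1, the fumarase gene, measured 54.9 and 56.7 CPM in the KO pools and 76.7 and 65.8 CPM in the WT pools (-0.35 ± 0.14 SE, edgeR adjusted p = 0.359). Its deposited locus also spans Kmo on the opposite strand, and no source used here says whether counting used the strand. Mdh2, the mitochondrial malate dehydrogenase gene, was at 94.5 and 92.5 CPM in the KO pools and 117 and 114 CPM in the WT pools (-0.30 ± 0.11 SE, edgeR adjusted p = 0.341), and stayed between -0.33 and -0.29 when single libraries were left out. Its cytosolic counterpart Mdh1 was at 109 and 112 CPM in the KO pools and 121 and 113 CPM in the WT pools (-0.08 ± 0.11 SE). As a share of the summed FPKM of both, Mdh1 was 51.6% and 53.7% in KO and 46.9% and 49.0% in WT.

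The first steps of the cycle form citrate and turn it into oxoglutarate. Cs, citrate synthase, measured 87.6 and 66.2 CPM in the KO pools and 79.9 and 97.5 CPM in the WT pools (-0.21 ± 0.17 SE). The groups overlapped, and the value lay between -0.43 and -0.02 when single libraries were left out. Idh3a, the catalytic subunit of the NAD-dependent isocitrate dehydrogenase, was at 49.8 and 48.9 CPM in the KO pools and 52.5 and 79.3 CPM in the WT pools (-0.42 ± 0.20 SE). That difference came mostly from WT replicate 2, and without it the log2 fold change was -0.087. Its partner subunit Idh3g was at 54.2 and 57.1 CPM in the KO pools and 62.5 and 67.7 CPM in the WT pools (-0.23 ± 0.13 SE), without overlap. Idh3b, the remaining subunit, was at 57.2 and 67.6 CPM in the KO pools and 57.6 and 66.8 CPM in the WT pools (0.0031 ± 0.15 SE). Its groups overlapped, and the sign turned, to -0.12, without KO replicate 2. Idh2, the mitochondrial NADP-dependent enzyme, was at 146 and 123 CPM in the KO pools and 143 and 149 CPM in the WT pools (-0.12 ± 0.12 SE). The cytosolic isocitrate dehydrogenase Idh1 was at 39.5 and 38.4 CPM in the KO pools and 43.9 and 47.6 CPM in the WT pools (-0.23 ± 0.14 SE), and made up 15.2% and 16.0% of the summed FPKM of Idh1 and Idh2 in KO and 17.1% and 17.0% in WT. Aco1, the cytosolic aconitase, was at 64.6 and 43.9 CPM in the KO pools and 55.9 and 59.0 CPM in the WT pools (-0.08 ± 0.20 SE).

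Succinyl-CoA ligase pairs the shared subunit Suclg1 with Suclg2 in its GTP-specific form or Sucla2 in its ATP-specific form. Suclg1 measured 51.9 and 42.4 CPM in the KO pools and 61.7 and 57.1 CPM in the WT pools (-0.33 ± 0.16 SE), without overlap. Suclg2 was at 25.5 and 33.9 CPM in the KO pools and 30.2 and 47.2 CPM in the WT pools (-0.38 ± 0.25 SE), and in both groups replicate 2 was the higher. Without WT replicate 2 its log2 fold change was -0.023, and without WT replicate 1 it was -0.68. Sucla2 was at 68.0 and 61.5 CPM in the KO pools and 55.9 and 64.7 CPM in the WT pools (0.10 ± 0.14 SE). On the FPKM scale Suclg2 made up 20.9% and 28.8% of the sum of Suclg2 and Sucla2 in KO and 26.0% and 33.7% in WT, so that the shares of the groups overlapped.

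**Figure D3:**
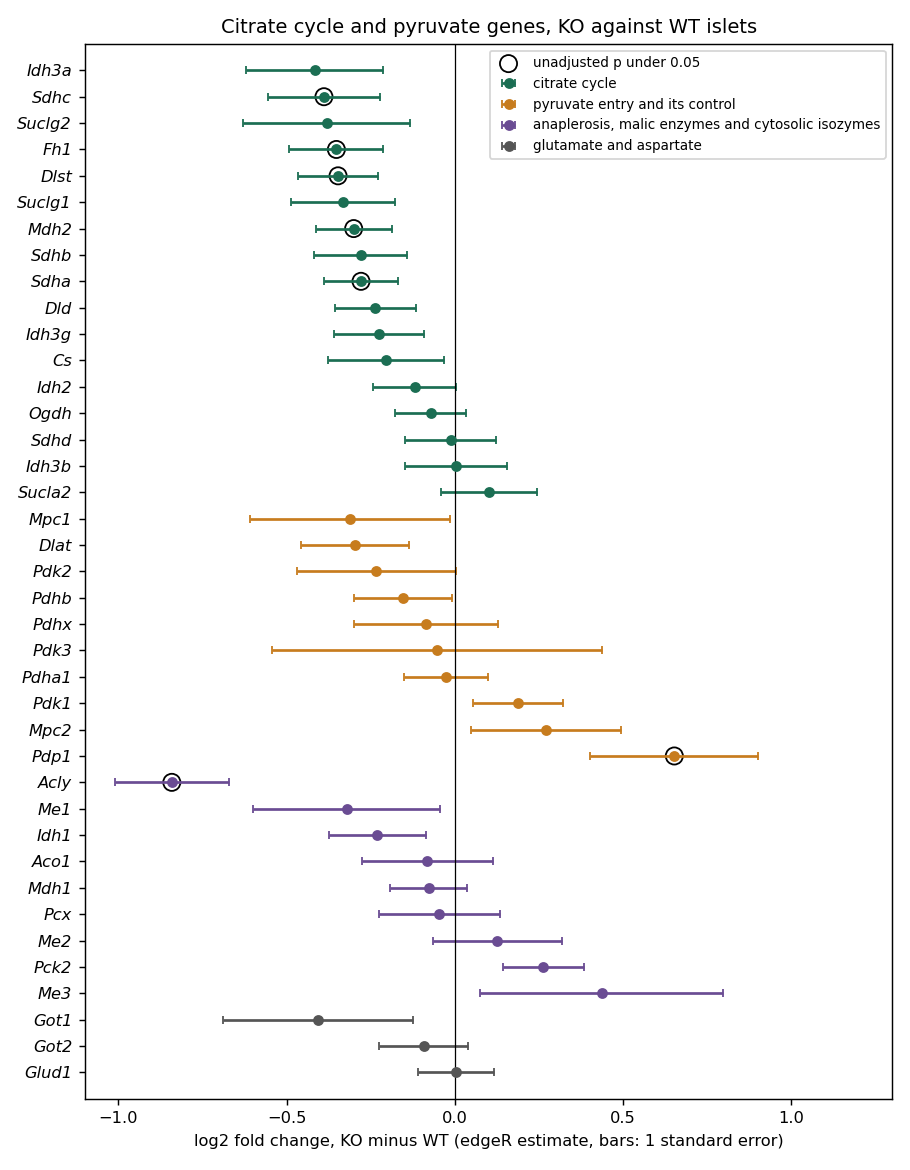
Log2 fold change, KO minus WT, of the 39 members with 1 standard error (edgeR, 2 libraries per group), grouped by role; rings mark an unadjusted p under 0.05. Of the 17 cycle genes 15 lie left of 0, Acly lies farthest left at -0.84 and Pdp1 farthest right at 0.65, and none passed the test over all genes.

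Among the genes of pyruvate entry and its control, 7 of 10 had a negative log2 fold change, with a median of -0.07, and 2 of 10 lay without overlap below WT and 2 above it, shares close to those over all genes (22.3% below and 22.7% above). The E1 subunits of pyruvate dehydrogenase were close to level, with Pdha1 at 109 and 103 CPM in the KO pools and 115 and 100.5 CPM in the WT pools (-0.03 ± 0.12 SE) and Pdhb at 59.3 and 72.8 CPM in the KO pools and 75.6 and 71.5 CPM in the WT pools (-0.16 ± 0.15 SE). Dlat, the acetyltransferase, was at 49.2 and 45.0 CPM in the KO pools and 51.6 and 64.1 CPM in the WT pools (-0.30 ± 0.16 SE), and Pdhx, which binds Dld to the core, was at 17.3 and 20.4 CPM in the KO pools and 20.3 and 19.7 CPM in the WT pools (-0.09 ± 0.21 SE). The carrier genes overlapped between the groups and had opposite signs. Mpc1 measured 9.92 and 14.1 CPM in the KO pools and 16.7 and 13.1 CPM in the WT pools (-0.31 ± 0.30 SE), and its deposited locus also spans the genes Sft2d1, Prr18 and T2 on the same strand. Mpc2 measured 28.7 and 23.7 CPM in the KO pools and 24.8 and 18.6 CPM in the WT pools (0.27 ± 0.22 SE), and its counts were fractional in every library.

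Regulators of the pyruvate dehydrogenase complex included the only member at an unadjusted p under 0.05 that was higher in KO. Pdp1, a phosphatase that activates the complex, measured 29.3 and 48.7 CPM in the KO pools and 24.4 and 25.2 CPM in the WT pools (0.65 ± 0.25 SE, edgeR adjusted p = 0.351, unadjusted p = 0.0327). Both KO libraries lay above both WT libraries, but the KO pools differed widely: the difference was 0.24 without KO replicate 2, and leaving out KO replicate 1 gave 0.96. Pdp2, the other catalytic phosphatase, had 18.4 and 21.5 CPM in the KO pools and 24.2 and 28.1 CPM in the WT pools (-0.39 ± 0.20 SE). Among the kinases, Pdk1 was at 68.0 and 69.7 CPM in the KO pools and 64.0 and 56.9 CPM in the WT pools (0.19 ± 0.13 SE), without overlap. Pdk2 was lower in each KO library, with 13.9 and 15.2 CPM in the KO pools and 18.0 and 16.3 CPM in the WT pools (-0.23 ± 0.24 SE). Pdk3 varied most within a group, with 10.6 and 12.4 CPM in the KO pools and 5.78 and 18.0 CPM in the WT pools, and its sign depended on the library left out (-0.66 without WT replicate 1 and 0.99 without WT replicate 2). Pdk4, a kinase induced by fasting and no member, had the highest FPKM of the 4 kinase genes in every library, with 48.1% and 58.3% of their summed FPKM in KO and 49.1% and 52.1% in WT. Its CPM was 123 and 150.3 in KO and 103 and 125 in WT (0.27 ± 0.15 SE).

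Anaplerotic enzymes refill the cycle, for example with oxaloacetate, and other enzymes drain oxaloacetate from it. Pcx, pyruvate carboxylase, measured 129.8 and 100.8 CPM in the KO pools and 136 and 102 CPM in the WT pools (-0.05 ± 0.18 SE). Replicates 1 were above replicates 2 in both groups, by 0.39 on the log2 scale. Pck2, the mitochondrial phosphoenolpyruvate carboxykinase, was at 83.8 and 81.5 CPM in the KO pools and 68.7 and 68.9 CPM in the WT pools (0.26 ± 0.12 SE, edgeR adjusted p = 0.426, unadjusted p = 0.0629). Its groups did not overlap and its pools lay close together, so that the value stayed between 0.23 and 0.28 without single libraries. Pck1, the cytosolic form and no member, was listed at 0 in both WT libraries and had 5 and 3 fragments in KO, which is too few to test.

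Malic enzymes turn malate into pyruvate. Me1, the cytosolic NADP-dependent form, was at 25.1 and 17.8 CPM in the KO pools and 32.8 and 20.9 CPM in the WT pools (-0.32 ± 0.28 SE). Me2, a mitochondrial NAD-dependent form, was at 24.7 and 24.5 CPM in the KO pools and 24.2 and 20.9 CPM in the WT pools (0.13 ± 0.19 SE), and Me3 at 8.65 and 15.0 CPM in the KO pools and 8.14 and 9.31 CPM in the WT pools (0.44 ± 0.36 SE). Me1 held 37.6% and 25.7% of the summed FPKM of these genes in KO and 39.3% and 34.2% in WT, and the groups overlapped.

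Glutamate and aspartate enzymes link the cycle to amino acids. Glud1, glutamate dehydrogenase, was level, at 246 and 226 CPM in the KO pools and 247 and 224 CPM in the WT pools (0.0034 ± 0.11 SE). Got2, the mitochondrial aspartate aminotransferase, was at 60.6 and 61.5 CPM in the KO pools and 61.5 and 68.7 CPM in the WT pools (-0.09 ± 0.13 SE). Got1, its cytosolic counterpart, was at 17.1 and 11.7 CPM in the KO pools and 16.5 and 21.8 CPM in the WT pools (-0.41 ± 0.28 SE), with overlap. Genes next to them on a list of 12 for anaplerosis and glutamate included 3 at an unadjusted p under 0.05. All 3 were higher in KO (background 6.51%) and 0 were lower (background 6.04%). Among them Glul, glutamine synthetase, measured 610.3 and 602 CPM in the KO pools and 496 and 464 CPM in the WT pools (0.34 ± 0.11 SE, edgeR adjusted p = 0.294). Mut, methylmalonyl-CoA mutase, whose product is the cycle intermediate succinyl-CoA, measured 80.6 and 86.4 CPM in the KO pools and 67.5 and 64.5 CPM in the WT pools (0.34 ± 0.12 SE, edgeR adjusted p = 0.329). None of the 12 was called, and their median was -0.09.

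**Figure D4:**
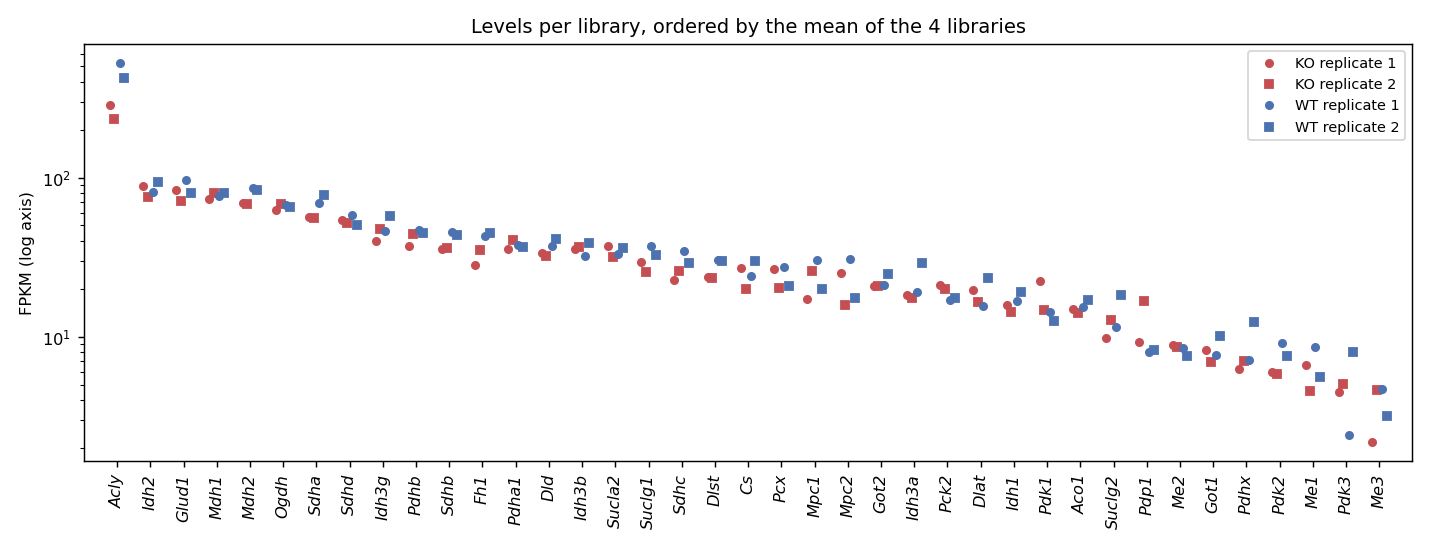
FPKM of the 39 members in each library on a log axis, ordered by the mean of the 4 libraries; red is KO, blue WT, circles replicates 1 and squares replicates 2. Acly stands apart at 286 and 233 FPKM in KO and 525 and 419 FPKM in WT, while the other 38 members run from a mean of 84.4 FPKM for Idh2 down to 3.66 FPKM for Me3.

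On the FPKM scale Acly had a mean of 366 FPKM over the 4 libraries and ranked 61 among all genes, and Idh2 came next at 84.4 FPKM, Glud1 at 82.8, Mdh1 at 77.5, Mdh2 at 76.95 and Ogdh at 65.7. Neighbours in this order overlapped across libraries from Idh2 to Mdh2, while every library of Ogdh (62.5 to 67.9 FPKM) lay below the lowest of Mdh2 (68.5 FPKM). The lowest were Me3 at 3.66, Pdk3 at 4.99 and Me1 at 6.33 FPKM. The ratio of FPKM to counts differed by over 1.2 times between libraries for 13 members, up to 2.30 times for Me3. Their differences are therefore given in CPM, and FPKM is used for levels and shares only. The shares carry the same limit. Me3 enters those of the malic enzyme genes, and Pdk1, whose ratio differed 1.5 times, those of the kinase genes.

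Replicate number separated no larger a share of the members than of all genes tested. Both libraries numbered 1 were above both numbered 2 in 6 of 39 members (background 16.9%), among them Pcx, Me1 and Glud1, and below them in 5 (background 16.1%), among them Suclg2, Pdk3 and Idh3b. In 20 members the genotypes did not overlap, 16 with KO below WT (background 22.3%) and 4 with KO above (background 22.7%). The 4 were Pdp1, Pck2, Pdk1 and Me2.

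**Figure D5:**
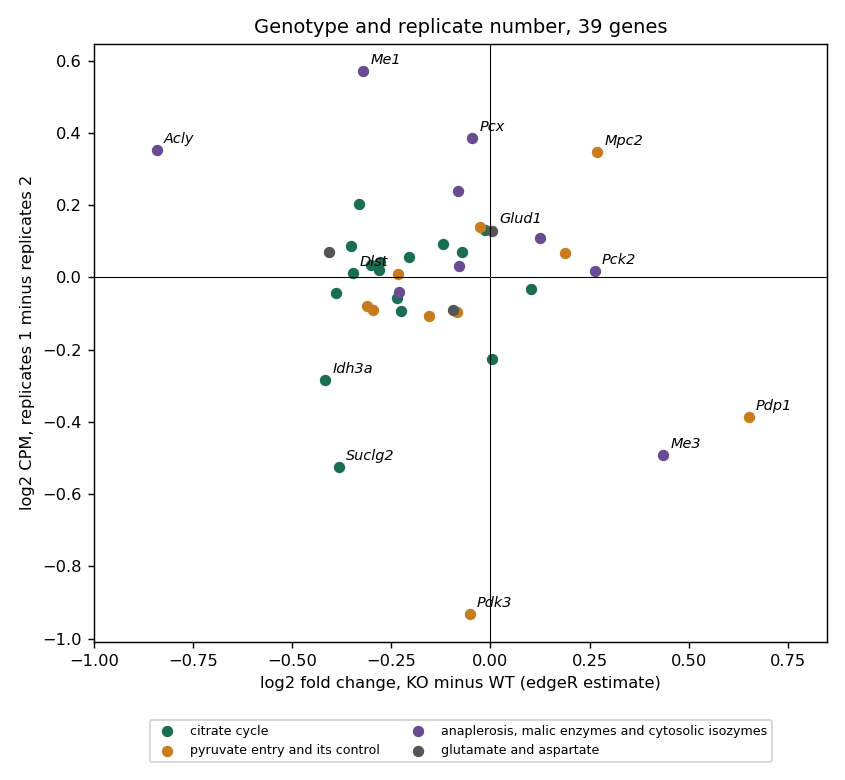
For each of the 39 members, the log2 fold change KO minus WT (x axis) and the mean log2 CPM of the 2 libraries numbered 1 minus that of the 2 numbered 2 (y axis), coloured by role. Acly lies far left at -0.84, 15 of the 17 cycle genes lie left of 0, and Pdk3 and Pcx differ mainly along the y axis, by -0.93 and 0.39.

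Summed over the 38 members other than Acly, CPM was 2638 and 2553 in KO and 2842 and 2795 in WT. Of 9 tested genes for lipoate and iron-sulphur assembly and succinate dehydrogenase assembly, 2 were lower and 7 higher in KO, with a median of 0.23. Only Sdhaf2 was at an unadjusted p under 0.05 (background 6.51% higher). Glrx5 and Lias, the most abundant of them in FPKM, were at 0.11 and -0.39. Mitochondrial carriers were 3 lower and 3 higher of 6 tested (median 0.02), and the 2 with the highest FPKM were Slc25a11, the oxoglutarate carrier, at 0.14 and Slc25a1 at -0.34. Of 8 regulators 4 were lower and 4 higher (median -0.0082). Among them Esrrg, an orphan nuclear receptor that activates genes of oxidative metabolism, was at 29.97 and 46.5 CPM in the KO pools and 22.9 and 26.9 CPM in the WT pools (0.62 ± 0.24 SE, edgeR adjusted p = 0.353, unadjusted p = 0.0335). Its log2 fold change ranged from 0.27 to 0.89 when single libraries were left out, and its mean FPKM was 7.62 in KO and 7.67 in WT, with a ratio of FPKM to counts that differed 2.06 times between libraries. Esrra, a relative of Esrrg, went the other way, at 5.91 and 6.52 CPM in the KO pools and 8.57 and 11.4 CPM in the WT pools. Its log2 fold change was -0.68 ± 0.35 SE (edgeR unadjusted p = 0.0864). Hif1a was at -0.09 and Nrf1 at 0.01. The deposited pathway annotation put 32 genes in the citrate cycle, 26 of them members, and of the other 6, 3 were tested, 1 lower and 2 higher. It put 38 genes in pyruvate metabolism, 12 of them members. Of 21 others tested 14 were lower and 7 higher, with 4 lower at an unadjusted p under 0.05 (background 6.04%).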

How the data were processed

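RNA sequencing was done on rRNA-depleted total RNA with directional libraries and paired ends, per the labels' protocols. The submitters' processing notes name cutadapt 1.9.3, HISAT2 2.0.4, Cufflinks, Cuffdiff and build mm10, and no source used here gives the annotation or the counting options. The authors deposited, per the file headers, FPKM and counts per gene. The deposited expected counts had been scaled per library before deposit by the authors, as their values show: among values under 30, 94.9% to 95.5% fell within 0.1 of a whole multiple of a step (0.901 to 1.16). Library totals divided by the step were 5132727 and 4057716 in KO and 5232245 and 4347134 in WT. For 37 of 39 members every library gave whole multiples, the others being Dlst and Mpc2.

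The 79 symbols with several rows were summed, counts rounded and filtered with filterByExpr, leaving 12789 genes. They were scaled by TMM and tested two-sided with edgeR 4.0.16 (R 4.3.3), with Benjamini-Hochberg adjustment over all genes. The standard error is the log2 fold change over the square root of the F statistic. DESeq2 1.42.0 and limma 3.58.1 were alternatives, and the closing section gives their effect. The edgeR steps were tested on simulated counts, and the outcome is not reported here. The common biological variation (BCV) came to 16.0%. The labels do not say whether pools came from separate animals, so p-values measure the spread between these pools, which may be technical. The members, lists and tests were chosen with earlier results of these data known. All members were described, with other genes by list: those at an unadjusted p under 0.05 and the highest by FPKM. Pdp2, Pck1, Acss1, Acss2 and Esrra were named beyond this rule, after their values were seen. A few genes chosen this way are not reported here. Sequences were matched by symbol to RefSeq windows on GRCm38.p6, and where a gene had several starts the window nearest the GENCODE M21 start was taken.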

Additional observations from a re-analysis of the deposited data

How the results depend on the processing

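Of 468 recomputed fold changes of single members (39 members, 12 alternatives), 423 kept direction and call, 42 changed sign and 3, all of Acly, became called. The number of genes called was 29 in the main test, 154 with DESeq2, 214 with a replicate block and 0 in each limma fit, and it ranged from 10 to 245 when single libraries were left out. Members called were 1 with DESeq2 (Acly, log2 fold change -0.85, DESeq2 adjusted p = 1.41e-05), 1 with a replicate block (Acly, -0.84, edgeR adjusted p = 0.00255), and 0 to 1 when single libraries were left out. Members at an unadjusted p under 0.05 were 7, against 2 with DESeq2 and 2 to 8 when single libraries were left out. The members' median log2 fold change was -0.16, and -0.17 without a filter on low counts, -0.20 with limma on log2(FPKM + 1) with and without a filter, -0.22 with a pseudocount of 0.1, and -0.20 to -0.12 without single libraries.

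The replicate numbers come from the labels, which do not say that they pair pools. The deviations of same-numbered libraries correlated at 0.159 across genes, with only 2 pairs. With the block Pdk3 was at 0.087 on the log2 scale.

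Sign changes were confined to 12 members. With other size factors, no filter or DESeq2, Idh3b was at -0.0018, -0.0081 and -0.0017 and Glud1 at -0.000855, -0.0075 and -0.000826. In limma on log2(FPKM + 1) with either filter Sucla2 was at -0.0024, Pdha1 at 0.037, Pdk3 at 0.050, Me3 at -0.20, Mpc2 at -0.21 and Glud1 at -0.17, and with a pseudocount of 0.1 these were -0.0026, 0.038, 0.10, -0.26, -0.22 and -0.17. Leaving out single libraries gave ranges of -0.21 to 0.018 for Pdhx, -0.66 to 0.99 for Pdk3, -0.069 to 0.065 for Glud1, -0.40 to 0.17 for Aco1, -0.12 to 0.12 for Idh3b, -0.12 to 0.093 for Sdhd, -0.12 to 0.066 for Pdha1, -0.25 to 0.16 for Pcx, -0.013 to 0.77 for Me3, -0.011 to 0.21 for Sucla2 and -0.61 to 0.026 for Me1. The cause was not tested.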
